A study of Mus musculus with 8 samples.

Results

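Wnt ligands are secreted, lipid-modified glycoproteins, and the set described here is the 10 ligand genes Wnt1, Wnt2b, Wnt3, Wnt3a, Wnt4, Wnt5a, Wnt5b, Wnt6, Wnt8a and Wnt11. They were taken by name, with each probe set that the platform annotation ties to 1 of them and to no other gene. This gave 10 of 12422 probe sets on the Affymetrix U74Av2 array and 16 of 45037 on the MOE430v2 array, controls apart. RNA was taken at embryonic day 7.5 from the epiblast region, cut free of the extra-embryonic region, in 2 Foxa2 null pools (53 and 48 embryos) and 2 wild-type pools (53 and 50 embryos). Each of the 4 extracts was put on 1 array of each platform, so n is 2 pools per genotype throughout and the second platform adds no pools.

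Foxa2 null embryos were grown from Foxa2 null embryonic stem cells by tetraploid complementation, in which a tetraploid host supplies the extra-embryonic tissues. The host's wild-type visceral endoderm stayed on the dissected epiblast region. Wild-type embryos were ICR mice from timed matings. The labels of the mutant MOE430v2 arrays also say ICR, those of the mutant U74Av2 arrays give no strain, and sexes were mixed in every pool. Genotype and the origin of the embryos cannot be told apart. Embryos ran from mid-streak to head-fold stages, and wild-type pool 2 held fewer head-fold and more mid-streak embryos than the other pools.

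In the gastrulating mouse embryo, Wnt3 acts in the posterior visceral endoderm and epiblast to start the primitive streak, and Wnt3a and Wnt8a are produced in and beside the streak. These ligands bind Frizzled receptors with Lrp5 or Lrp6 and stabilize beta-catenin, which acts with Tcf and Lef factors on target genes. Wnt5a, Wnt5b and Wnt11 are better known for signalling without beta-catenin, in cell polarity and movement. Foxa2 encodes a forkhead transcription factor of the node, the axial mesendoderm and the endoderm.

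Promoter windows of 250 bases before the annotated transcription start were found for 8 of the 10 genes in RefSeq (mouse build GRCm38.p6). Wnt5a and Wnt8a were not matched. The windows of Wnt3a and Wnt3 are shown because they are the streak ligands that could be matched, and the first window of Wnt11 because it held the most matches. They are read 5′ to 3′ on the strand of the gene, and capitals mark a match to a searched motif. Wnt3a lies at chr11:59290752-59291001 on the minus strand, Wnt3 at chr11:103773925-103774174 on the plus strand and Wnt11 at chr7:98834862-98835111 on the plus strand.
Wnt3a: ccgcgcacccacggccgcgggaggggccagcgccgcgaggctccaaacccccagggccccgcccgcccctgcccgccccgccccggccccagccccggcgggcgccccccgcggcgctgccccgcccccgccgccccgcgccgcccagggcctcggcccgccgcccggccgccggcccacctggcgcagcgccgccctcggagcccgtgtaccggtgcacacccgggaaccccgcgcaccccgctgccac
Wnt3: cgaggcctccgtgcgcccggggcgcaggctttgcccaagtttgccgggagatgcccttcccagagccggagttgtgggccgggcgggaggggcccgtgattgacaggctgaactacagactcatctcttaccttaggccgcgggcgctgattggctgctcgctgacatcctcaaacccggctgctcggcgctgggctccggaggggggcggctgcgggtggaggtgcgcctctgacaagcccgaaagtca
Wnt11: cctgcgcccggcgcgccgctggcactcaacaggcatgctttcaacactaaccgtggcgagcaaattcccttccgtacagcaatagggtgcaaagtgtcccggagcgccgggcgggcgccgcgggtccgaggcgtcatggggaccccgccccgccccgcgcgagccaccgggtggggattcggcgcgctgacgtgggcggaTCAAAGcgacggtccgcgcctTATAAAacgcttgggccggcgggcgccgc

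The motifs searched on both strands were CTTTGA (Tcf/Lef core), TGTTTAC (forkhead core), AGGTGTGA (T-box core) and TATAAA (the box that TBP binds), which occur in 13.8%, 3.17%, 1.12% and 12.4% of 32851 such windows. Neither the Wnt3a nor the Wnt3 window held any of them. The Wnt11 window held 1 Tcf/Lef core, read on the other strand as TCAAAG, 50 bases before the start, and 1 TATA box 29 bases before it. G and C made up 87.6% of the Wnt3a window, 68% of the Wnt3 window and 70.8% of the Wnt11 window, against a median of 52.4% over all windows. A match is a run of letters and not a bound site.

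Foxa2 was read first, as a check of the labels. Its U74Av2 signal was 84 and 93.8 in the Foxa2 null pools, against 165.3 and 270.7 in the wild-type pools, and its MOE430v2 signal was 510 and 538.8 in the Foxa2 null pools, against 802.7 and 1139 in the wild-type pools. Both null pools were below both wild-type pools on either platform. With both platforms combined, the log2 ratio (Foxa2 null over wild-type) came to -1.07 ± 0.20 (standard error; limma, adjusted p = 0.0309), and to -0.75 (adjusted p = 0.0787) in a fit that left out wild-type pool 2, 0.0507 being the adjusted p without the filter on low signals and 0.195 without the intensity trend of the variance. Whether the probe sets lie in the deleted part of the gene is not known here. Signals are MAS5 intensities on a linear scale, and an adjusted p is Benjamini-Hochberg adjusted over all probe sets, or all genes, that were tested.

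In wild-type pools, 4 of the 10 ligands were above a background level on MOE430v2 and 1 on U74Av2. The value tables used here carry no detection calls, so a background level was set on each array as the 95th percentile of the probe sets of genes that the gastrula is not known to use, namely genes of late or adult tissues and olfactory and vomeronasal receptors. It lay at 131 and 137.3 in the Foxa2 null pools and at 139.3 and 144.6 in the wild-type pools on U74Av2. On MOE430v2 it was 238.4 and 257.7 in the Foxa2 null pools and 241.6 and 256.6 in the wild-type pools. On U74Av2, 0 ligands exceeded it in both Foxa2 null pools and 1 did in both wild-type pools, Wnt8a. On MOE430v2 the same 4 ligands, Wnt3a, Wnt5a, Wnt6 and Wnt8a, exceeded it in both Foxa2 null pools and in both wild-type pools. The count of ligands depends on that level. With the 30th percentile of all probe sets in its place it was 7 on U74Av2 and 6 on MOE430v2 in wild-type pools, and with the late- and adult-tissue genes alone it was 0 on U74Av2 and 4 on MOE430v2. The Wnt8a signal on U74Av2 exceeded the level narrowly in wild-type pool 2, at 146.4 against 144.6. A probe set below the level may still report a transcript found in few cells of the pool, and fewer cells of a type cannot be told apart from less RNA per cell in such pools. Signals of different probe sets depend on their probes and are not ranked against each other.

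**Figure D1:**
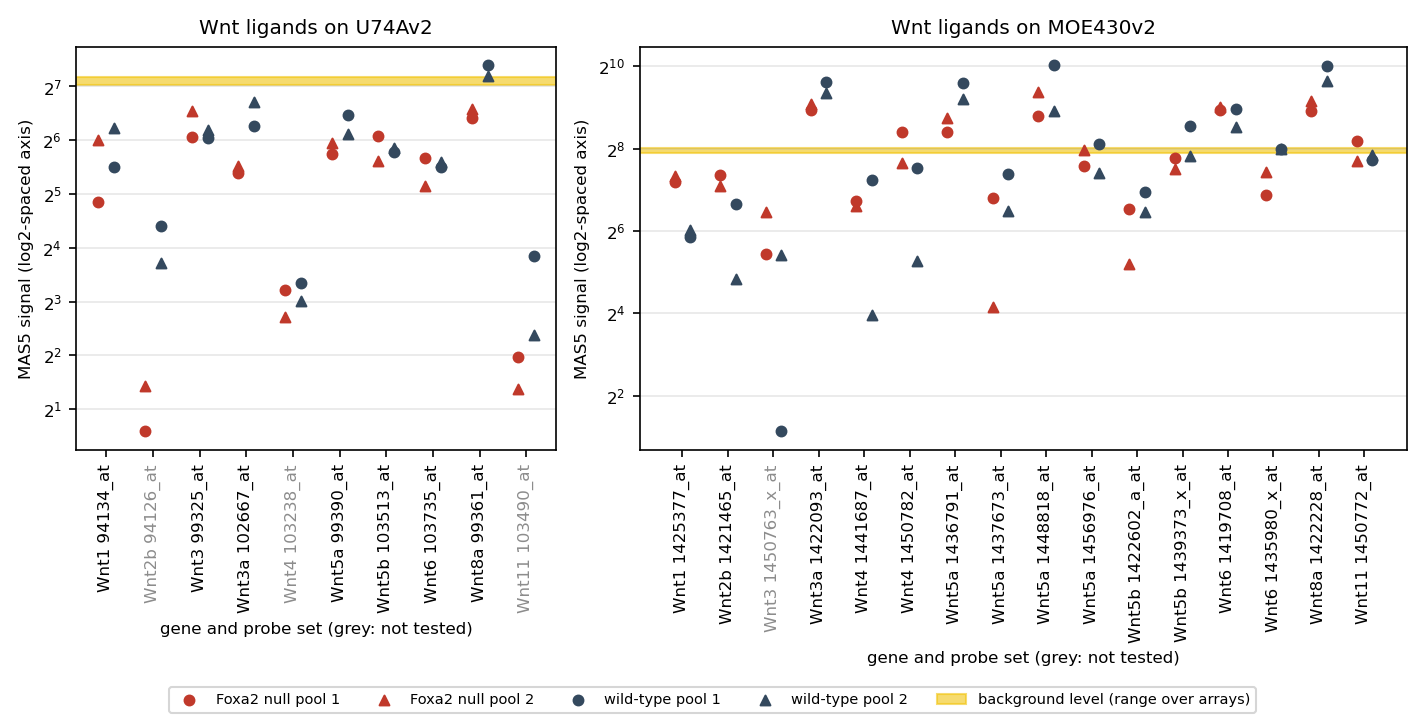
MAS5 signal of each Wnt ligand probe set (log2-spaced axis) in the 2 Foxa2 null pools (red, left) and the 2 wild-type pools (dark, right) on each platform, with the background level as a band over its range across arrays. On U74Av2 only Wnt8a in wild-type pools lies above the band, and on MOE430v2 Wnt3a, Wnt8a, 1 probe set of Wnt6 and 2 of Wnt5a lie above it in all 4 pools.

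Wnt8a, a streak ligand that signals through beta-catenin, was lower in the Foxa2 null pools on both platforms. On U74Av2 its signal was 85.5 and 95.9 in Foxa2 null pools, against 168.1 and 146.4 in wild-type pools. On MOE430v2 it was 482.6 and 575.7 in Foxa2 null pools, against 1027 and 797.0 in wild-type pools. Neither platform had any overlap between the genotypes. In each, the younger wild-type pool 2 had the lower signal of the wild-type pools. In wild-type pools the signal stood at the 73rd and 71st percentile of the U74Av2 array and at the 85th and 82nd percentile of the MOE430v2 array. The log2 mean was 6.50 ± 0.12 in Foxa2 null and 7.29 ± 0.14 in wild-type pools on U74Av2, and 9.02 ± 0.19 in Foxa2 null and 9.81 ± 0.22 in wild-type pools on MOE430v2 (SD, n = 2 pools each).

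By limma, the log2 ratio of Wnt8a was -0.79 on U74Av2 (standard error 0.20, adjusted p = 0.196) and -0.79 on MOE430v2 (standard error 0.19, adjusted p = 0.147), so that neither platform alone passed the threshold of 0.05. With the log2 values of both platforms averaged per extract, the ratio was -0.79 (standard error 0.17, 0.578-fold, adjusted p = 0.0393), and Wnt8a was the only ligand of the 6 tested in this way that passed. Without Foxa2 null pool 1 or 2 the ratio was -0.68 or -0.90, and without wild-type pool 1 or 2 it was -0.66 or -0.92. Such a fit leaves 1 pool in a genotype, and the call did not hold in each of them. The call also ended, at the same ratio, without the filter on low signals (adjusted p = 0.0668), without the intensity trend (0.178) or without loess (0.0555). On U74Av2 both null pools were under the background level, and with that level in place of their signals wild-type was at least 1.17-fold higher, so that the U74Av2 ratio, and the value over both platforms that averages it in, has no settled size. On MOE430v2 all 4 pools were above it.

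Wnt3a, a ligand of the streak and later of the tail bud that is needed to form posterior somites, had lower signals in the Foxa2 null pools on both platforms but did not pass. Its MOE430v2 signal was 494.9 and 542.3 in Foxa2 null pools, against 782.5 and 657.8 in wild-type pools, all above the background level. Its U74Av2 signal was 41.8 and 46.1 in Foxa2 null pools, against 77.0 and 105.1 in wild-type pools, all below it. The genotypes did not overlap on either platform. Wild-type pool 1 was the higher of the wild-type pools on MOE430v2 and the lower on U74Av2. The log2 ratio on MOE430v2 was -0.48 ± 0.19 (standard error; limma, adjusted p = 0.349) and -1.04 on U74Av2 (standard error 0.27, adjusted p = 0.197). Over both platforms it was -0.76 (standard error 0.18, adjusted p = 0.057), just outside the threshold, a value that averages in U74Av2 signals below background, and it stayed between -0.83 and -0.68 when any 1 pool was left out. The authors had already reported Wnt3a and Wnt8a as reduced in these pools, so the array values are no separate support. They also reported both as lower by quantitative PCR in a further pool of each genotype.

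Wnt3 was dim on both platforms. Its U74Av2 signal was 67.1 and 93.1 in Foxa2 null pools, against 66.1 and 72.9 in wild-type pools, a log2 ratio of 0.19 with overlapping pools (standard error 0.26, adjusted p = 0.872 by limma). Its MOE430v2 probe set, of a type that can bind transcripts of other genes, gave 43.45 and 88.81 in Foxa2 null pools, against 2.192 and 43.08 in wild-type pools, and was left out of the tests as too dim. All these signals were below background.

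**Figure D2:**
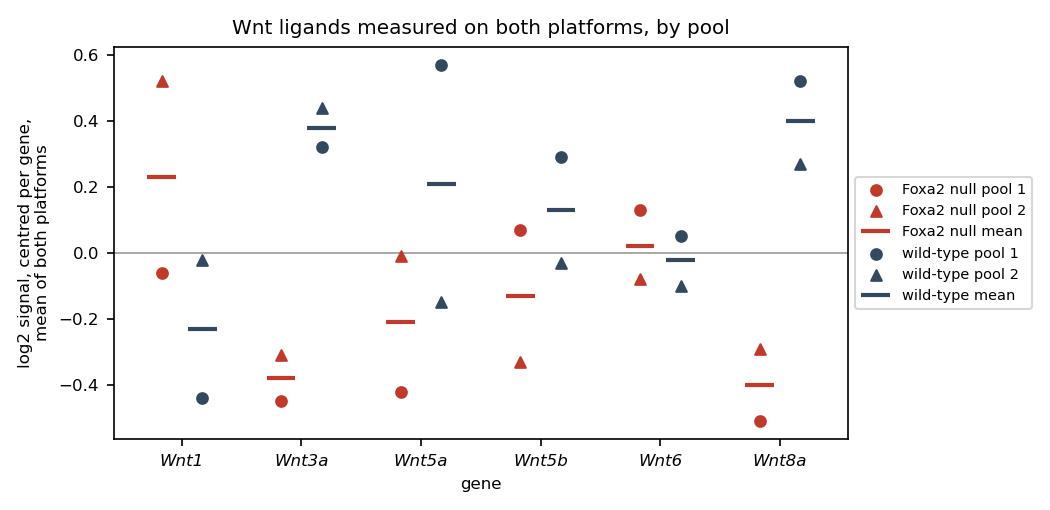
Log2 signal of the 6 Wnt ligands tested over both platforms, centred per gene and averaged over the platforms, in the 2 Foxa2 null pools (red, left) and the 2 wild-type pools (dark, right), with group means as short lines. Wnt8a is at -0.51 and -0.29 in Foxa2 null pools against 0.52 and 0.27 in wild-type pools, Wnt3a is likewise apart, and the pools of Wnt1, Wnt5a, Wnt5b and Wnt6 overlap.

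Of the ligands known for polarity and movement, Wnt5a was lower at the probe sets with the least spread, but its probe sets did not move alike. At 1436791_at on MOE430v2 the signal was 340.6 and 426.2 in Foxa2 null pools, against 771.7 and 589.2 in wild-type pools, without overlap (log2 ratio -0.83, standard error 0.22, adjusted p = 0.173 by limma). On U74Av2 it was 53.4 and 61.6 in Foxa2 null pools, against 89.0 and 69.0 in wild-type pools (-0.45, standard error 0.26, adjusted p = 0.619), again apart but below background.

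The other 3 Wnt5a probe sets on MOE430v2 had overlapping pools. The one with the highest mean signal, 1448818_at, gave 440.9 and 668.0 in Foxa2 null pools, against 1043 and 483.2 in wild-type pools (log2 ratio -0.40, adjusted p = 0.685 by limma). At 1456976_at the log2 ratio was 0.01 and at 1437673_at, with signals of 17.9 to 111.8 in Foxa2 null and 89.52 to 167.7 in wild-type pools, it was -1.43. All 5 probe sets were higher in wild-type pool 1 than in wild-type pool 2, by 0.34 to 1.06 on the log2 scale, and pool 2 is the younger one by its stages. Over both platforms, where 1448818_at stands for the MOE430v2 array, the log2 ratio of Wnt5a was -0.42 (standard error 0.25, adjusted p = 0.48), with -0.07 when wild-type pool 1 was left out and -0.78 when wild-type pool 2 was.

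Wnt5b, its close relative, gave 218.5 and 182.4 in Foxa2 null pools, against 376.4 and 225.3 in wild-type pools, at the brighter of its MOE430v2 probe sets, which can bind other transcripts and stands for the gene over both platforms (log2 ratio -0.55, standard error 0.33, adjusted p = 0.566 by limma). Its other MOE430v2 probe set had a ratio of -0.81 and its U74Av2 probe set one of 0.03, both with overlapping pools. Over both platforms the ratio was -0.26 (standard error 0.25, adjusted p = 0.688).

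Wnt11 was at 293.3 and 206.7 in Foxa2 null pools on MOE430v2, against 213.3 and 229.3 in wild-type pools, with overlap and close to the background level (log2 ratio 0.15, standard error 0.31, adjusted p = 0.887 by limma). On U74Av2 it was too dim to test, at 3.9 and 2.6 in Foxa2 null pools, against 14.4 and 5.2 in wild-type pools.

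Of the 6 ligands tested over both platforms, Wnt6 had the ratio closest to 0. At 1419708_at on MOE430v2 it gave 492.5 and 516.6 in Foxa2 null pools, against 495.7 and 368.5 in wild-type pools, which overlap as signals and come apart by a small margin after loess normalization (log2 ratio 0.23, standard error 0.22, adjusted p = 0.721 by limma). Its other MOE430v2 probe set, which can bind other transcripts, went the opposite way, with 117.3 and 171.9 in Foxa2 null pools, against 254.1 and 252.8 in wild-type pools (-0.83, standard error 0.34, adjusted p = 0.38). On U74Av2 the ratio was -0.13, and over both platforms it was 0.05 (standard error 0.21, adjusted p = 0.939).

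Wnt1, Wnt2b and Wnt4, which are best known from later neural and urogenital development, were mostly at or below the background level. Wnt1 gave 147.1 and 160.9 in Foxa2 null pools on MOE430v2, against 57.97 and 65.08 in wild-type pools (log2 ratio 1.35, standard error 0.51, adjusted p = 0.343 by limma), and 29.0 and 64.2 in Foxa2 null pools on U74Av2, against 45.1 and 74.5 in wild-type pools (-0.43, adjusted p = 0.813). Wnt2b gave 163.4 and 135.7 in Foxa2 null pools on MOE430v2, against 101.0 and 28.39 in wild-type pools (1.50, standard error 0.71, adjusted p = 0.446), and 1.5 and 2.7 in Foxa2 null pools on U74Av2, against 21.3 and 13.2 in wild-type pools, too dim to test. Over both platforms the Wnt1 ratio was 0.46 (adjusted p = 0.594) with overlapping pools. For both genes the platforms pointed in opposite directions at signals below background.

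Wnt4 was the one of these ligands that crossed the background level in any pool. At 1450782_at on MOE430v2 it gave 340.2 and 201.5 in Foxa2 null pools, against 184.0 and 38.91 in wild-type pools, and only Foxa2 null pool 1 was above the level (log2 ratio 1.65, standard error 0.68, adjusted p = 0.384 by limma). Without wild-type pool 2 the ratio was 0.51. At its other MOE430v2 probe set the pools overlapped, with 106.8 and 96.94 in Foxa2 null pools and 152.3 and 15.69 in wild-type pools. On U74Av2 its signals of 6.6 to 9.3 in Foxa2 null and 8.1 to 10.2 in wild-type pools were too dim to test.

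**Figure D3:**
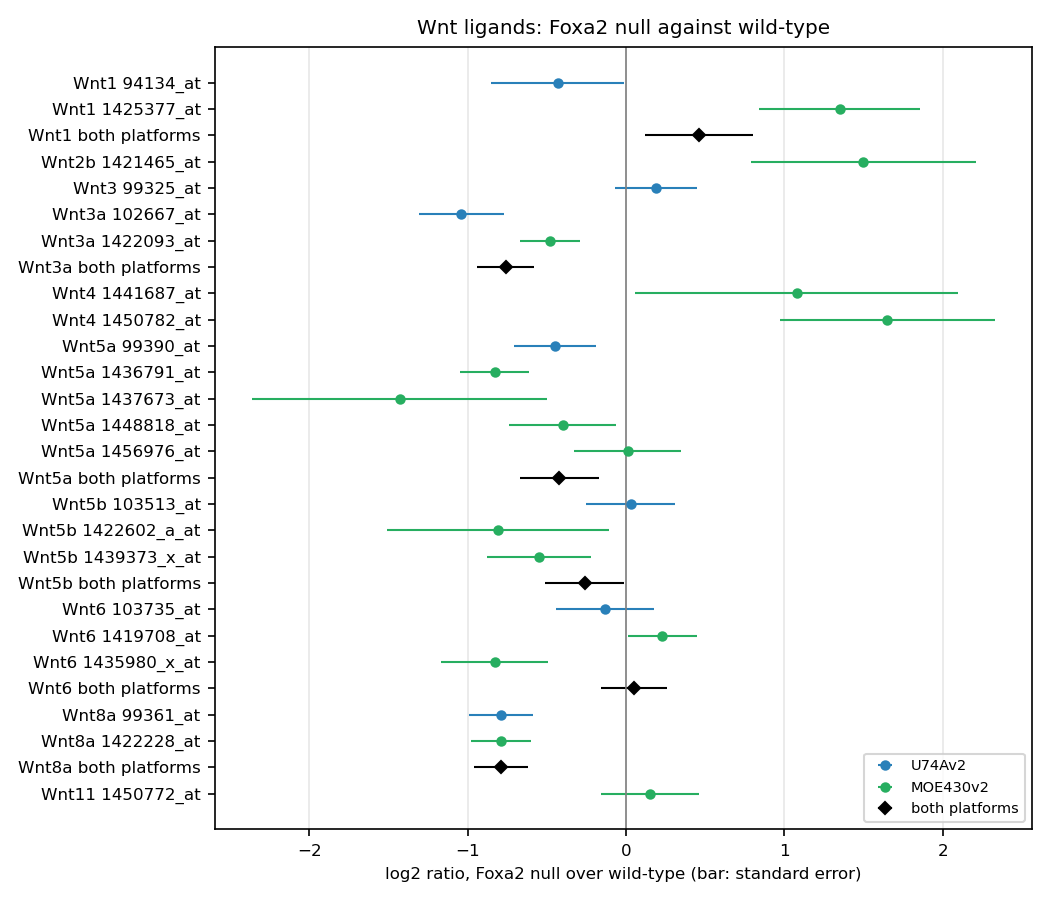
Log2 ratio, Foxa2 null over wild-type, for each tested probe set of the Wnt ligands and, as diamonds, for the ligands tested over both platforms, with bars for the standard error. Wnt8a lies at -0.79 on either platform and over both, its null pools being below background on U74Av2, Wnt3a is below 0 on both platforms, and the ratios of Wnt1 differ in sign between platforms.

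Across the set, 0 of 7 tested probe sets on U74Av2 and 0 of 15 on MOE430v2 passed in either direction. Over all probe sets tested, 0.173% were called lower and 0.104% higher on U74Av2, and 0.244% lower and 0.19% higher on MOE430v2. At an unadjusted p under 0.05, 2 ligand probe sets on U74Av2 (Wnt3a and Wnt8a) were lower and 0 higher, where 5.01% of all were lower and 5.01% higher. On MOE430v2, 4 ligand probe sets were lower and 2 higher, where 6.07% of all were lower and 6.04% higher. At the adjusted threshold, 1 of 6 ligands was called lower over both platforms and 0 higher, where 1.06% of all genes were called lower and 1.35% higher.

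The genotypes did not overlap at 3 ligand probe sets on U74Av2, all lower in Foxa2 null pools. Of all tested probe sets, 21.4% were apart and lower and 18.6% apart and higher. On MOE430v2, 5 ligand probe sets were apart and lower and 4 apart and higher, where 21.8% and 21.5% of all were. Over both platforms 2 of 6 ligands were apart and lower and 0 apart and higher, against 23.5% and 22.2% of all genes. The median log2 ratio of the ligand probe sets was -0.43 on U74Av2 and -0.40 on MOE430v2, against -0.018 and -0.001 over all probe sets tested. Separated pools were thus common among all features with 2 pools per genotype.

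The 3 genes whose both-platform values over the 4 pools lay nearest to those of Wnt8a, among 5933 genes, were Serpinf1 (distance 0.0945), Mrc2 (0.119) and Slco5a1 (0.119). Serpinf1 encodes a secreted serpin and Mrc2 an endocytic collagen receptor. Their log2 ratios were -0.83, -0.71 and -0.72. With 4 pools such likeness is a description only.

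Other Wnt ligands that sit beside members on the chromosome were read as well. Wnt9a, the neighbour of Wnt3a, was too dim to test on MOE430v2 and gave 10.68 and 26.95 in Foxa2 null pools, against 139.6 and 139.1 in wild-type pools, at 1 probe set, and overlapping pools at its other one. Wnt9b, the neighbour of Wnt3, gave 35.83 and 106.2 in Foxa2 null pools, against 204.4 and 138.5 in wild-type pools, at 1451711_at (log2 ratio -1.42, adjusted p = 0.407 by limma), and overlapping pools at its other probe set. Wnt10a, beside Wnt6, had ratios of 0.15 and -0.09 on U74Av2 and MOE430v2. Wnt10b, beside Wnt1, had a ratio of -0.07 at its 1 tested probe set, on U74Av2. All these signals were below the background level. Of the Wnt ligands outside the set, 2 genes were tested on U74Av2 and 5 on MOE430v2, and 0 passed. Wnt7a and Wnt7b each had 1 MOE430v2 probe set above the background level in all 4 pools, with ratios of -0.25 (adjusted p = 0.743 by limma) and 0.29 (adjusted p = 0.666).

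Among receptors, Fzd5 fell. At 1455604_at on MOE430v2 it gave 698.1 and 737.5 in Foxa2 null pools, against 1617 and 1273 in wild-type pools (log2 ratio -1.01, standard error 0.16, adjusted p = 0.0423 by limma). This call ended without the filter (adjusted p = 0.0998), without the intensity trend (0.454) and under quantile normalization (0.0513). It did not hold either without wild-type pool 1 (ratio -0.86) or without wild-type pool 2 (-1.16), fits that leave 1 pool in a genotype. The dimmer Fzd5 probe set had a ratio of 0.04 with overlapping pools. Fzd2 was lower without overlap at all 4 of its probe sets, by 0.34 to 0.59 on the log2 scale, and had a ratio of -0.39 over both platforms (adjusted p = 0.0902). Lrp5, a co-receptor, went the other way, with 0.83 over both platforms (adjusted p = 0.21). It gave 72.2 and 48.4 in Foxa2 null pools on U74Av2, against 20.2 and 23.1 in wild-type pools, all below background, and overlapping pools on MOE430v2 (0.21). Of 15 receptor and co-receptor genes, 1 probe set of 33 was called lower on MOE430v2, where 0.244% of all were. On U74Av2 0 of 16 probe sets passed, and over both platforms 0 of 11 genes. The median ratio was -0.15 on MOE430v2 and -0.22 on U74Av2.

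Of the genes that carry Wnt ligands through the secretory path, Vps35 rose. It is a subunit of retromer, which returns the Wnt carrier Wls from endosomes. Its signal was 1018 and 1353 in Foxa2 null pools on U74Av2, against 757.3 and 681.3 in wild-type pools, and 7194 and 8166 in Foxa2 null pools on MOE430v2, against 5373 and 5702 in wild-type pools. Both platforms combined gave a ratio of 0.59 ± 0.11 (log2, standard error; limma, adjusted p = 0.0326). This call ended when Foxa2 null pool 2 (adjusted p = 0.0797), wild-type pool 1 (0.0571) or wild-type pool 2 (0.0773) was left out, without the intensity trend (0.223) and without loess (0.0504). Of the tested secretion genes, 0 of 3 probe sets passed on U74Av2 and 0 of 13 on MOE430v2. Wls itself had a ratio of -0.40 over both platforms (adjusted p = 0.246).

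Among genes listed for transduction, which include the membrane proteins Celsr1, Celsr2, Vangl1 and Vangl2, 0 of 45 probe sets passed on MOE430v2 and 0 of 14 on U74Av2. For Tcf, Lef and partner genes it was 0 of 14 on MOE430v2 and 0 of 7 on U74Av2. Of the transduction genes, Celsr2 had a ratio of -0.58 (adjusted p = 0.145 by limma) and Csnk1a1 one of -0.27 (adjusted p = 0.2) over both platforms. Lef1, itself a target as well as a mediator, was at 397.6 and 411.5 in Foxa2 null pools on U74Av2, against 399.2 and 410.1 in wild-type pools, while its other U74Av2 probe set (-0.45, adjusted p = 0.49) and 1 of its MOE430v2 probe sets were apart and lower, this MOE430v2 probe set with 1343 and 1317 in Foxa2 null pools, against 1692 and 1676 in wild-type pools (-0.35, adjusted p = 0.329). Its ratio over both platforms was -0.17 (adjusted p = 0.541), with the pools apart. Genes of R-spondins, which amplify Wnt signals, and of their receptors gave 0 of 2 probe sets past the threshold on U74Av2 and 0 of 11 on MOE430v2.

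Of the target genes of Wnt signalling, Cdx1 and Dll1 fell. Cdx1, a posterior homeobox gene, gave 568.1 and 316.5 in Foxa2 null pools on MOE430v2, against 2004 and 1588 in wild-type pools (log2 ratio -2.08, standard error 0.26, adjusted p = 0.0152 by limma). Over both platforms it fell by 1.80 (standard error 0.25, adjusted p = 0.0113). Dll1, a Notch ligand of the presomitic mesoderm, gave 1561 and 1839 in Foxa2 null pools, against 3592 and 3237 in wild-type pools (-1.01, standard error 0.13, adjusted p = 0.0175), and fell by 0.89 over both platforms (adjusted p = 0.0113). On MOE430v2 alone both calls were lost without either wild-type pool. Over both platforms the ratio with 1 pool left out was -2.25 to -1.34 for Cdx1 and -0.99 to -0.8 for Dll1. Such a fit leaves 1 pool in a genotype, so a call kept in it is no sign of stability. Without the intensity trend neither passed over both platforms (adjusted p = 0.165 for Cdx1 and 0.146 for Dll1).

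The negative feedback gene Axin2, a widely used readout of beta-catenin activity, had a ratio of -0.22 over both platforms (standard error 0.15, adjusted p = 0.544 by limma). At its brighter MOE430v2 probe set it gave 1560 and 1782 in Foxa2 null pools, against 1785 and 1714 in wild-type pools, which overlap. On U74Av2 it gave 64.6 and 70.5 in Foxa2 null pools, against 97.5 and 78 in wild-type pools, which are apart (-0.37, adjusted p = 0.677), and the pools were apart over both platforms as well. Sp5, a direct target in the streak, gave 658.8 and 1010 in Foxa2 null pools, against 1286 and 1390 in wild-type pools (-0.72, standard error 0.21, adjusted p = 0.22). Dkk1, a target that encodes a Wnt antagonist, had a ratio of -0.70 over both platforms (adjusted p = 0.106). The target T was not analysed here.

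Of the target genes, 2 of 28 probe sets were called lower on MOE430v2 and 0 of 12 on U74Av2, and 2 of 10 genes over both platforms were lower, with 0 higher in each. Of all features tested, 0.244%, 0.173% and 1.06% were called lower. Ratios were below 0 at 24 of 28 probe sets, at 11 of 12 and in 9 of 10 genes. Their median was -0.39, -0.41 and -0.49, against -0.001, -0.018 and -0.01 over all features tested. Pools were apart and lower at 14 of 28 probe sets, at 7 of 12 and in 8 of 10 genes, where 21.8%, 21.4% and 23.5% of all were. The list shares Tbx6, Msgn1 and Sp5 with the primitive streak list below, and Lef1 and Lgr5 with other pathway lists. It was chosen with earlier results of these data known. The authors had already reported Cdx1, Dll1 and Tbx6 as reduced in these pools, so the counts are no separate support. No test compared the list with other genes.

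**Figure D4:**
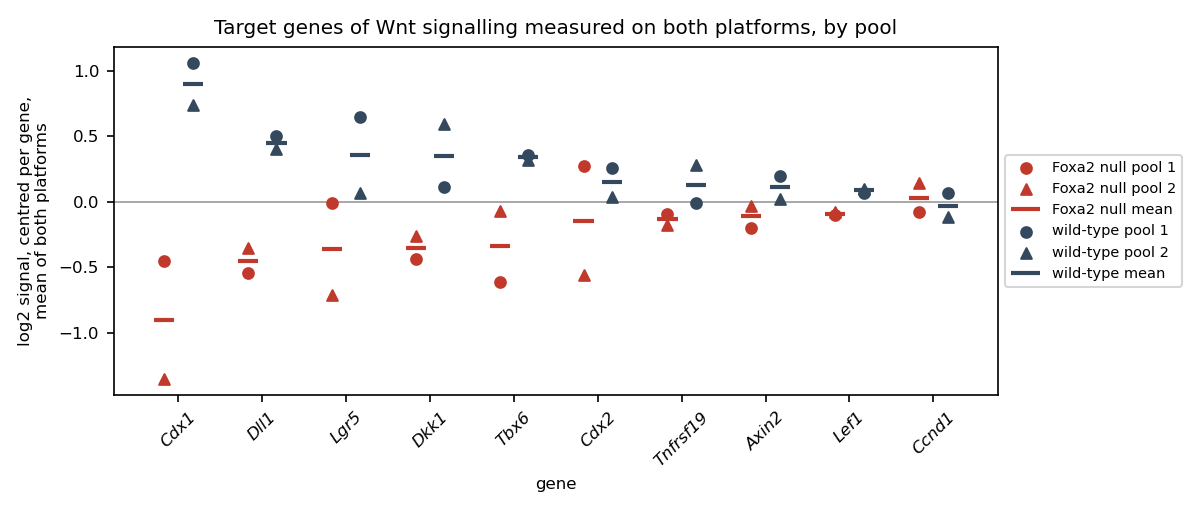
Log2 signal of the 10 target genes of Wnt signalling tested over both platforms, centred per gene and averaged over the platforms, in the 2 Foxa2 null pools (red, left) and the 2 wild-type pools (dark, right), with group means as short lines. Cdx1 and Dll1 are the genes that passed, at -1.80 and -0.89, while Axin2 and Lef1 differ by 0.22 or less between group means.

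Markers of other tissues in the pools differed as well. Of 9 visceral endoderm genes tested over both platforms, 0 passed, and the median log2 ratio was 0.34. In this list 5 genes were apart and higher in Foxa2 null pools, where 22.2% of all genes were. The summed signal of the visceral endoderm list was 67600 to 83050 in Foxa2 null pools and 58490 to 66610 in wild-type pools on MOE430v2 (11 genes), and 5955 to 8920 in Foxa2 null pools and 5824 to 6038 in wild-type pools on U74Av2 (10 genes). Of 5 node and notochord genes tested over both platforms, 3 were called lower, where 1.06% of all genes were. These were Shh, Cer1, which encodes an antagonist made in anterior endoderm rather than in the notochord, and Foxa2. Foxa2 is the mutated gene and no separate marker of the tissue here, and the list median of -1.07 is its own ratio. Foxj1 was apart and lower without passing (-0.85, adjusted p = 0.268 by limma). On MOE430v2 alone its pools overlapped, with 123.4 and 130.1 in Foxa2 null pools, against 100.1 and 361.4 in wild-type pools. On U74Av2 all its signals were below background. Nodal was apart and higher over both platforms (0.25, adjusted p = 0.665 by limma). Heart genes had a median of -1.02 over both platforms with 2 of 3 called lower, where 1.06% of all genes were. Summed heart signal on MOE430v2 was 1134 to 1229 in Foxa2 null pools and 1802 to 2429 in wild-type pools. Epiblast genes had a median of 0.44 over both platforms, and 0 of 4 passed. Nanog (0.82, adjusted p = 0.149 by limma) and Utf1 (0.79, adjusted p = 0.0956) were apart and higher. Both were also higher in the younger wild-type pool 2 than in wild-type pool 1. The centred log2 values were -0.18 against -0.64 for Nanog and -0.07 against -0.72 for Utf1. Sox2 was apart and lower (-0.39, adjusted p = 0.2), and the pools of Pou5f1 overlapped. Summed node and notochord signal was 1819 to 2407 in Foxa2 null pools and 3617 to 5162 in wild-type pools on MOE430v2. Without Cer1 it was 1415 to 1760 in Foxa2 null pools and 2542 to 3281 in wild-type pools. Both sums include Foxa2.

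Of the primitive streak list, which names the tissue that makes Wnt3a and Wnt8a, 0 of 7 genes passed over both platforms, 1 was apart and lower (Tbx6, -0.68, adjusted p = 0.082 by limma) and 3 were apart and higher, with Eomes at 1.63 (adjusted p = 0.108) and Mesp2 at 0.69 (adjusted p = 0.222). Among all genes, 23.5% were apart and lower and 22.2% apart and higher. Eomes was also higher in the younger wild-type pool 2 than in wild-type pool 1 (centred log2 of -0.02 against -1.61). On MOE430v2, which measures more of the list, 5 of its 13 tested probe sets were apart and lower and 4 apart and higher. Among all probe sets tested there, 21.8% were apart and lower and 21.5% apart and higher. The lower ones of the list included Tbx6, Msgn1 and Sp5, which the target list also holds. The rest of them were Fgf4 probe sets below background in all 4 pools. Another Fgf4 probe set was among the higher ones, with those of Eomes and Mesp2. Msgn1, a presomitic mesoderm regulator measured on MOE430v2 alone, had a ratio of -0.84 there (adjusted p = 0.307 by limma), beside Sp5 as given above. The summed signal of the list overlapped between genotypes, at 5997 and 10070 in Foxa2 null pools and 6320 and 8264 in wild-type pools on MOE430v2. Of 6 genes of extra-embryonic ectoderm and its derivatives, Ascl2, Elf5, Esx1 and Tpbpa were not above the background level on any array of either platform, while on MOE430v2 Ets2 and Plac1 were above it in all 4 pools. The summed signal there was 1622 to 1762 in Foxa2 null pools and 1733 to 1810 in wild-type pools over the 6 genes. The part of these tissues, and of embryo stage, in the ratios of Wnt8a, Wnt3a and Cdx1 was not tested.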

How the data were processed

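The authors deposited 1 MAS5 signal (a linear intensity) for each probe set and array, scaled so that arrays of a platform share a trimmed mean. That mean was 150.1 on U74Av2 and 500 on MOE430v2. Median signals per array were 48 to 52.8 and 155.3 to 165, and the number of arrays limits the precision. Probe-level values and detection calls were not analysed here.

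U74Av2 signals were used as scaled and MOE430v2 signals after cyclic loess, both on the log2 scale, with values of 0 (4 on U74Av2) set to 0.1. Control probe sets (66 and 64) and the 30% with the lowest mean (3727 and 13511) were left out, which left 8695 and 31526. Genes came from the platform annotation, in which 10833 and 34945 probe sets name 1 gene, 396 and 932 several and 1193 and 9160 none. Foxa2 null minus wild-type was tested by limma 3.58.1 in R 4.3.3 (two-sided moderated test, prior variance following the signal), adjusted by Benjamini-Hochberg over all tested features, at a threshold of 0.05. To combine platforms, each extract's log2 values were averaged for the brightest tested probe set of each gene (5933 genes). The background level rested on 99 U74Av2 and 180 MOE430v2 probe sets. With 2 pools a side, the smallest exact permutation p is 0.333. Nothing in the labels shows whether pools came from separate litters or days, so p-values measure only the spread between pools. The limma code was run on data simulated from its own variance model, which cannot show how well that model describes these pools.

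Members and lists were chosen with earlier results of these data known. Named are all members at their probe sets, pathway genes past the threshold, Axin2, Sp5, Lef1, T and Cdx1, up to 3 genes a list with the largest both-platform difference and separated pools on both platforms, and the 3 genes nearest to a ligand above background with separated pools on both platforms. Lrp5, Msgn1, Eomes, Mesp2, Tbx6, Fgf4, Shh, Cer1, Foxj1, Nodal, Wnt7a, Wnt7b, Wnt9a, Wnt9b, Wnt10a, Wnt10b and the epiblast and extra-embryonic genes were named after their values were seen. Alternatives were a replicate block, no filter, an offset of 16, no intensity trend, quantile normalization, no loess, leaving out each pool, and other background levels. Same-numbered pools deviated together only weakly (correlation 0.111 on U74Av2 and 0.085 on MOE430v2).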

Additional observations from a re-analysis of the deposited data

How the results depend on the processing

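The only ligand called, Wnt8a over both platforms, kept its ratio of -0.79 but not its call without the filter on low signals (adjusted p = 0.0668 by limma), without the intensity trend (0.178) and without loess on MOE430v2 (0.0555, an alternative chosen after seeing the data), so that 0 ligands were then called lower. It kept the call under quantile normalization (0.0439) and with the offset (-0.74, adjusted p = 0.0297). Leaving out each pool gave 0 to 1 ligands lower over both platforms.

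The pool numbers are a shared number and no known pairing. With a replicate block, 2 ligands were lower on U74Av2, 2 on MOE430v2 and 2 over both platforms, and 1 probe set (Wnt4) was higher on MOE430v2. Other pathway genes called lower numbered 3 on U74Av2, 15 on MOE430v2 and 6 over both platforms with the block, and 2 were higher on U74Av2 and 3 on MOE430v2, where without it 0, 3 and 2 were lower and 0 and 0 higher. The share of all features called with the block is not given here, so these counts show nothing particular to Wnt genes. Pathway genes lower on MOE430v2 came to 0 without the filter and 0 without the intensity trend, over both platforms to 0 lower and 0 higher without the trend, and to 0 higher without loess. Leaving out each pool gave 0 to 1 lower on U74Av2, 0 to 5 on MOE430v2 and 2 to 4 over both platforms, with 0 to 1 higher over both. The causes were not tested, except that fewer pools leave less to estimate the spread.

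Ligands above the background level in wild-type pools on U74Av2 were 7 with the 30th percentile of all probe sets and 0 with the specialised-tissue genes only. Ratios that turned sign when 1 pool was left out were those of Wnt1 (-1 to 0.15), Wnt3 (-0.05 to 0.42), Wnt4 (not tested, -0.46 to 0.03), Wnt5b (-0.21 to 0.26) and Wnt6 (-0.38 to 0.12) on U74Av2, of Wnt4 at 1441687_at (-0.58 to 2.77), Wnt5a at 1448818_at (-0.93 to 0.13) and 1456976_at (-0.34 to 0.36) and Wnt11 (-0.12 to 0.43) on MOE430v2, and of Wnt6 over both platforms (-0.06 to 0.16). None of these was called. Wnt8a and Wnt3a kept their sign under each alternative. Signals near background and 2 pools per genotype limit what can be seen of the dimmer ligands.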
